A study of Mus musculus with 28 samples.

Results

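Hippocampal gene expression was compared directly between 3xTg mice given navitoclax (ABT263, labelled NAVI) and 3xTg mice given dasatinib plus quercetin (labelled DQ). The 8 libraries were chosen by their labels, 4 from NAVI and 4 from DQ, of 28 libraries in the series, and the comparison ran over the 16369 genes of 24062 that passed a low count filter. Every library came from the hippocampus of a female mouse, and RNA was measured by bulk sequencing of stranded messenger RNA libraries. The 3xTg line models Alzheimer's disease: it carries transgenes for human APP and tau, driven by the Thy1 promoter, and both drug groups carry them. The groups used are 3xTg with NAVI, 3xTg with DQ, WT with NAVI and WT with DQ (WT is the strain labelled BL6129 or BL6/129), and, as context, 3xTg with the vehicles VehN and VehD, each of 4 libraries. Vehicles were matched to drugs by the last letter of their names, VehN to NAVI and VehD to DQ. The sources used here give no ages, doses or schedules, nor do they state that each library is a separate animal, so p-values measure the spread between these libraries, which may in part be technical. Total counts of the 8 libraries ran from 32080861 to 50440096.

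Navitoclax and dasatinib plus quercetin are both used as senolytics, drugs given to remove senescent cells, but they act on different proteins. Navitoclax occupies the groove of anti-apoptotic proteins of the BCL-2 family (BCL-2, BCL-XL and BCL-W) and so releases pro-apoptotic partners in cells that depend on them. Dasatinib inhibits tyrosine kinases, among them the ABL and SRC families, PDGF receptors, DDR receptors and ephrin receptors, and quercetin is a plant flavonoid with many reported targets. Senescent cells keep a stable cell cycle arrest held by inhibitors such as p21 (Cdkn1a) and p16 (Cdkn2a) and secrete cytokines, proteases and their inhibitors.

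No gene passed an adjusted p of 0.05 between NAVI and DQ in 3xTg, so percent called was 0 of 16369 genes with edgeR's quasi-likelihood test and Benjamini-Hochberg adjustment. The smallest adjusted p was 0.150. At an unadjusted p under 0.05 there were 2367 genes (14.5%), of which 1143 were higher with NAVI (6.98%) and 1224 lower (7.48%). Levels are given in CPM, a gene's count relative to the scaled total of its library, and differences as log2 of NAVI over DQ, so that a positive value means a higher level with NAVI. All 4 NAVI libraries lay above all 4 DQ libraries for 599 genes (3.66%) and below them for 703 (4.29%). With other tools on the same counts DESeq2 called 3 genes (0.0183%) and limma-voom 8 (0.0489%). DESeq2 called Sdhaf2, Vps13c and BC023829, and limma-voom called these and Gja4, Rab34, Notch3, Sgk2 and Chordc1.

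The intervals show how large a difference these libraries leave room for. The 95% interval of the difference lay wholly within 1.5-fold in either direction for 11217 genes (68.5%) and within 2-fold for 14091 genes (86.1%). Precision followed the level of expression, with 93.6% of the 8185 more expressed genes and 43.4% of the 8184 less expressed genes bounded within 1.5-fold. The median standard error was 0.0847 in the upper group and 0.205 in the lower one, on the log2 scale. Across all tested genes 52.8% had a difference above 0, 47.2% had one below 0 and the median difference was 0.0156.

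**Figure D1:**
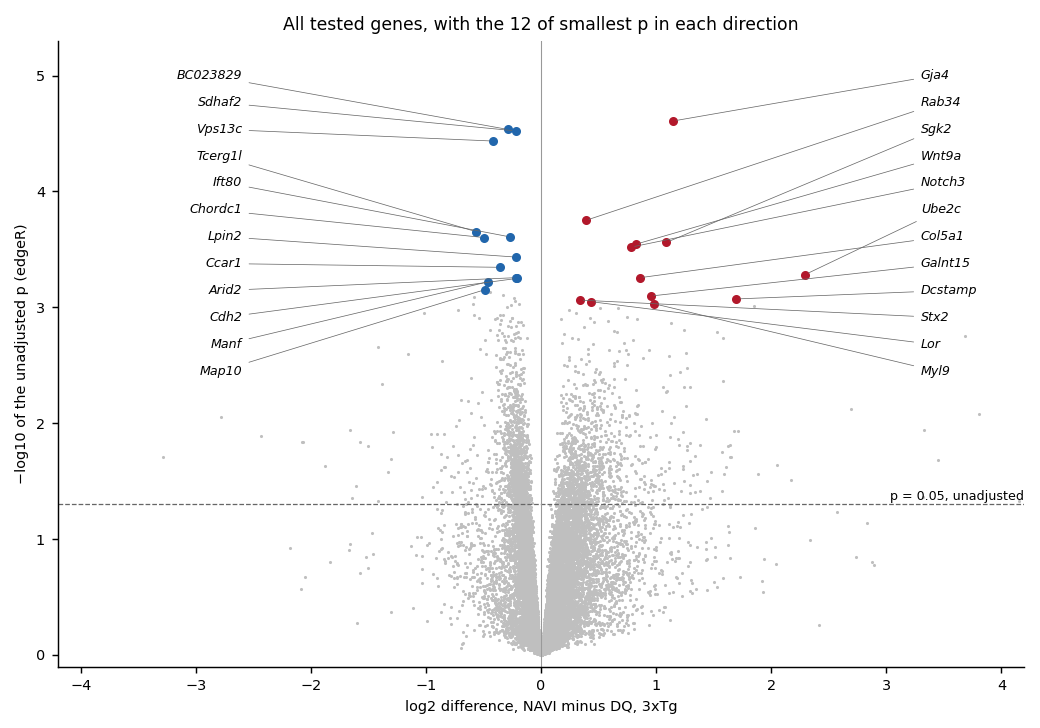
Difference between NAVI and DQ in 3xTg for each tested gene (x axis, log2 of NAVI over DQ) against the minus log10 of its unadjusted p (y axis); 2 genes lie outside the x axis. Red points are the 12 genes of smallest p that were higher with NAVI and blue points the 12 that were lower; those higher with NAVI span larger differences, from 0.34 for Stx2 to 2.30 for Ube2c, and no gene passed after adjustment.

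Among the genes lower with NAVI, those with the smallest p differed by small amounts, with no overlap between the libraries of the drugs. Genes picked by p from these same libraries tend not to overlap, so this is no separate result (4.29% of all genes lay wholly lower). BC023829, which the annotation used here gives no name or position for, had 45.9, 50.5, 48.2 and 47.6 CPM with NAVI, against 56.6, 57.8, 59.4 and 61 CPM with DQ. Sdhaf2 encodes an assembly factor of succinate dehydrogenase and lies at chr19:10500534-10526142 (GRCm38, minus strand). It had 48.9, 52.4, 52.2 and 51.7 CPM with NAVI, against 58.5, 60.6, 59 and 61.3 CPM with DQ. Vps13c, a lipid transfer protein of membrane contact sites (chr9:67840396-67995638, plus strand), had 108, 124, 94.9 and 110 CPM with NAVI, against 138, 162, 145 and 138 CPM with DQ. In all 3 genes every NAVI library was below every DQ library. The log2 differences were -0.29 (SE 0.0567), -0.22 (SE 0.0437) and -0.42 (SE 0.0833) in that order, each with an adjusted p of 0.150. For Vps13c the vehicle libraries differed in the same way, with 104 to 125 CPM with VehN and 141 to 148 CPM with VehD, so that the difference between the drugs after subtraction of the vehicles was -0.05 (SE 0.118). Sdhaf2 and BC023829 had differences of -0.15 (SE 0.0617) and -0.23 (SE 0.08) after that subtraction, neither of them called.

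The other 9 genes of smallest p on that side had an adjusted p of 0.336 each and no overlap between the libraries of NAVI and DQ. They were Chordc1 and Manf, described with the chaperones, Ift80, a component of intraflagellar transport in cilia (-0.27, SE 0.0626), Lpin2, a phosphatidate phosphatase (-0.22, SE 0.0538), and Ccar1, a transcriptional coactivator (-0.36, SE 0.0888). Arid2, a subunit of the PBAF chromatin remodelling complex, differed by -0.22 (SE 0.0555). Cdh2, which encodes N-cadherin, differed by -0.21 (SE 0.0531). Tcerg1l differed by -0.56 (SE 0.131) and Map10, a microtubule-associated protein, by -0.49 (SE 0.127). Ift80 had 33.8 to 40.7 CPM with NAVI and 43.5 to 47.9 CPM with DQ, beside 43.8 to 45.9 CPM with VehN and 42 to 45.5 CPM with VehD, so that the vehicles lay at the level of DQ.

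The 12 genes of smallest p that lay higher with NAVI were mostly of low level, and vascular genes were among them. Gja4 encodes connexin 37, a gap junction protein of arterial endothelium (chr4:127311421-127314039, minus strand), and had 1.87, 1.36, 1.56 and 1.24 CPM with NAVI, against 0.814, 0.739, 0.611 and 0.531 CPM with DQ. Notch3, a receptor of smooth muscle cells and pericytes (chr17:32120820-32166852, minus strand), had 10.9, 9.48, 11.8 and 10.6 CPM with NAVI, against 7.55, 5.01, 6.16 and 6.08 CPM with DQ. No library of either gene crossed between the drugs. The log2 differences were 1.15 (SE 0.222, adjusted p = 0.15) for Gja4 and 0.78 (SE 0.187, adjusted p = 0.336) for Notch3. For Gja4 the VehN libraries, at 1.13 to 1.63 CPM, lay above every DQ library and overlapped those of NAVI. Its VehD libraries, at 0.751 to 1.45 CPM, overlapped those of both drugs.

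The remaining genes of smallest p on this side shared the adjusted p of 0.336. Rab34, a small GTPase needed for cilium formation, differed by 0.39 (SE 0.088), Sgk2, a kinase related to the glucocorticoid-induced Sgk1, by 1.09 (SE 0.257) and the secreted ligand Wnt9a by 0.82 (SE 0.195). Col5a1, a chain of fibrillar collagen, had 8.23, 8.23, 12.6 and 8.32 CPM with NAVI, against 5.92, 4.32, 6.02 and 4.37 CPM with DQ (0.86, SE 0.217). Galnt15, a glycosyltransferase, differed by 0.95 (SE 0.249), Stx2, a syntaxin, by 0.34 (SE 0.0888) and Lor, a protein of the cornified skin envelope, by 0.44 (SE 0.116). Ube2c, a ubiquitin-conjugating enzyme of mitosis, and Dcstamp, a membrane protein of cell fusion in osteoclasts, were near the lowest level measured. Ube2c had 0.153 to 0.262 CPM with NAVI and 0 to 0.0724 CPM with DQ, and Dcstamp averaged 0.291 ± 0.0887 CPM with NAVI and 0.0873 ± 0.0305 CPM with DQ (SD, n = 4 each). Of the 24 genes only the smooth muscle gene Myl9 (0.98, SE 0.262) had overlapping libraries. The 24 were picked by p from these same libraries, so their lack of overlap follows largely from the choice and is no separate result. Over all genes 3.66% lay wholly higher with NAVI and 4.29% wholly lower.

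**Figure D2:**
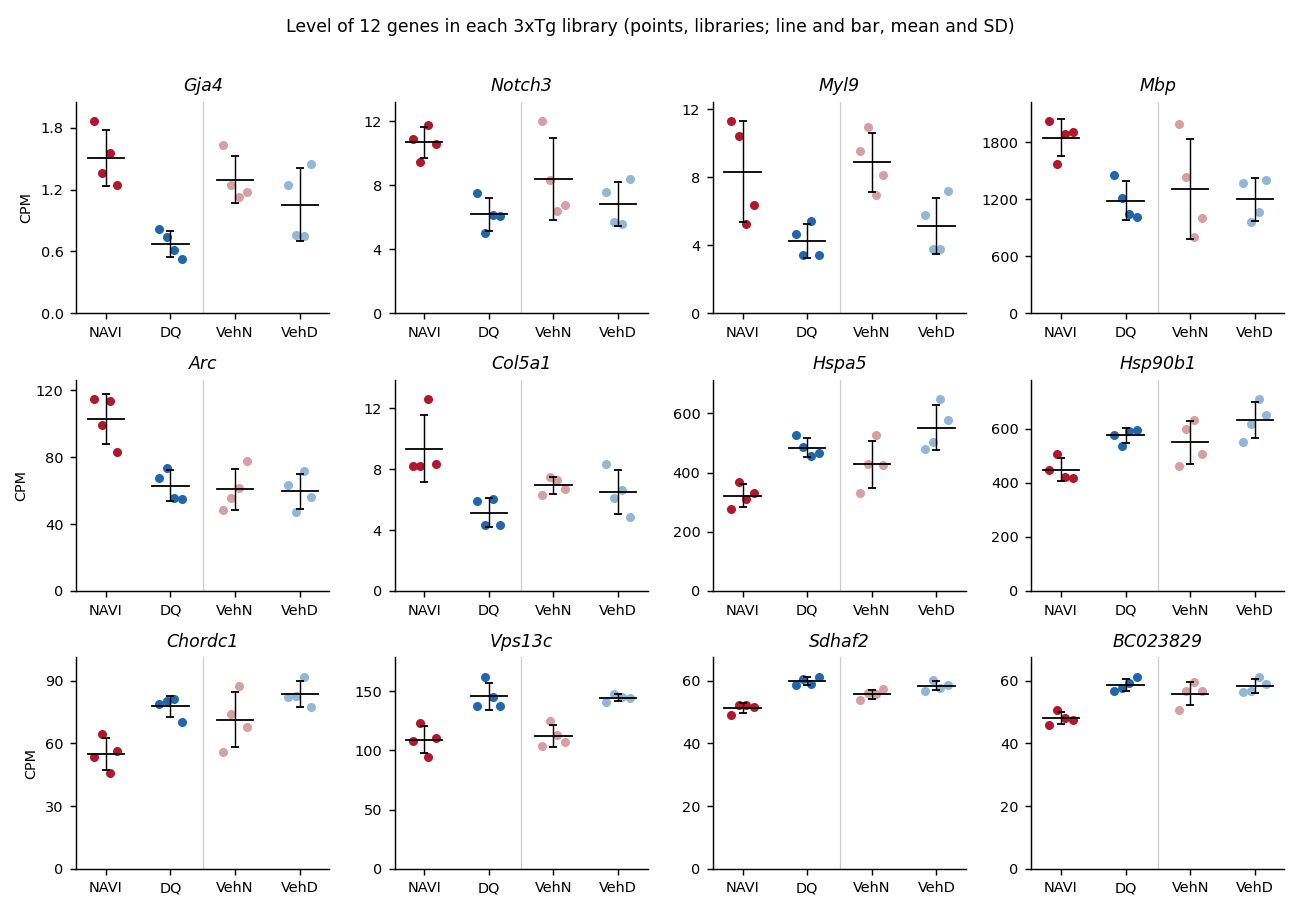
Level in CPM of 12 genes in each 3xTg library, with NAVI left of DQ and the vehicles VehN and VehD at the right; points are libraries, lines and bars the mean and SD of 4. Gja4, Notch3 and Col5a1 are higher in every NAVI library than in any DQ library, Hspa5, Chordc1 and Sdhaf2 are lower, and for Vps13c the vehicles are split in the same way as the drugs.

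Heat shock and endoplasmic reticulum chaperones were, of the 28 gene lists described here, the one with the most members whose libraries did not overlap. These proteins fold or refold others, in the cytosol (the HSP70 and HSP90 proteins), in mitochondria (Hspd1 and Hspe1) and in the endoplasmic reticulum (Hspa5, also called BiP, and Hsp90b1). Of 18 members tested 0 were called, 10 had an unadjusted p under 0.05 and all of these were lower with NAVI, against 7.48% of all genes. In 10 members, 9 of them shared with those, every NAVI library lay below every DQ library, against 4.29% of all genes. The median difference of the list was -0.22, beside 0.0156 over all genes. Hspa5 had 276, 368, 312 and 330 CPM with NAVI, against 528, 487, 455 and 467 CPM with DQ. Hsp90b1 had 447, 507, 422 and 416 CPM with NAVI, against 576, 536, 591 and 596 CPM with DQ. Chordc1, a partner of HSP90, had 53.6, 64.4, 45.6 and 56.3 CPM with NAVI, against 79, 80.3, 81 and 70.3 CPM with DQ. In none of these 3 genes did a library cross between the drugs. The log2 differences were -0.59 (SE 0.157) for Hspa5, -0.36 (SE 0.0996) for Hsp90b1, -0.50 (SE 0.116) for Chordc1 and -0.29 (SE 0.0814) for Hsph1, a nucleotide exchange factor of HSP70, all with an adjusted p of 0.336. Manf, a secreted protein of the endoplasmic reticulum stress response that is no member of the list, had 30.3, 37.8, 32.4 and 32.7 CPM with NAVI, against 49.1, 44.2, 44.6 and 45.2 CPM with DQ (-0.46, SE 0.117).

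The vehicles differed in the same direction. The median of the list was -0.14 for VehN against VehD, -0.11 for NAVI against VehN and -0.06 for DQ against VehD, and -0.12 for the drugs after subtraction of the vehicles. Hspa5 had 333, 429, 526 and 427 CPM with VehN and 479, 505, 649 and 576 CPM with VehD, and its difference after subtraction of the vehicles was -0.22 (SE 0.222). The drugs in WT, which share no library with the 3xTg comparison, gave a list median of 0.05. With the trend on GC content removed the 3xTg median was -0.18, and leaving out any 1 library gave no value nearer to 0 than that.

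Control elements in promoters were looked up for the 4 list members named for their small p, Hspa5, Hsp90b1, Chordc1 and Hsph1. The other members of the list were not looked up, so the matches do not describe the list. RefSeq promoters (GRCm38.p6, from upstream of the start site to just past it) were searched on both strands for the endoplasmic reticulum stress element, which is CCAAT and CCACG with 9 bases of any kind between them and is bound by ATF6 with NF-Y. They were also searched for a heat shock element, GAA, TTC and GAA each set 2 bases apart, which heat shock factor binds. The first occurred in 39 of 32851 promoters (0.119%) and the second in 198 (0.603%). Among the genes named here by rule, the first was found in Hspa5, with 1 match, and in Hsp90b1, with 2, and the second in Chordc1, Hsph1 and the cyclin gene Ccnd3. The promoter of Manf was not searched. Both stress element genes are shown with the matches in capitals, Hspa5 at chr2:34772020-34772049 on the plus strand and Hsp90b1 at chr10:86705515-86705674 on the minus strand, with the second match of Hsp90b1 on the opposite strand.
Hspa5: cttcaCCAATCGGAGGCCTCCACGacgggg
Hsp90b1: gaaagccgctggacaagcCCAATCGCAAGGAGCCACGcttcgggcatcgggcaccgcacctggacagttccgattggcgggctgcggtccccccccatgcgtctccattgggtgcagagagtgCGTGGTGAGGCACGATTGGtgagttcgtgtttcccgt
These matches are letters in a window and were not measured as binding here.

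ATF4 target genes belong to the arm of the same stress response that raises amino acid supply. They did not go with the chaperones: 16 of 19 had a difference above 0 (52.8% of all genes had), and the median was 0.19. On the higher side 3 had an unadjusted p under 0.05 (6.98% of all genes) and on the lower side 0 (7.48%). Nupr1, a small stress-induced nuclear protein, averaged 6.05 ± 1.41 CPM with NAVI and 4.06 ± 0.663 CPM with DQ, and Slc3a2, the heavy chain of amino acid transporters, 113 ± 7.32 CPM with NAVI and 104 ± 2.37 CPM with DQ (SD, n = 4 each). With the GC trend removed the list median was 0.05, and without NAVI replicate 3 it was 0.07. Neither gene passed after adjustment, at 0.57 (SE 0.205) and 0.13 (SE 0.0556).

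Pericyte and smooth muscle genes mark the contractile cells that wrap brain vessels. All 12 tested members had a difference above 0, with a median of 0.65, and 7 had an unadjusted p under 0.05 on the higher side, against 6.98% of all genes. For 4 of the 12 every NAVI library lay above every DQ library (3.66% of all genes). Myl9, the regulatory myosin light chain of smooth muscle, is no member of the list and was named for its small p. It had 11.3, 10.4, 5.26 and 6.34 CPM with NAVI, against 4.67, 3.42, 5.44 and 3.4 CPM with DQ. Tagln, an actin-binding protein, had 13, 11.5, 5.9 and 4.77 CPM with NAVI, against 3.53, 3.53, 5.73 and 3.55 CPM with DQ. NAVI replicates 1 and 2 held the high levels of both genes, and NAVI replicates 3 and 4 lay within or close to the DQ range. Des, the muscle intermediate filament, averaged 1.21 ± 0.447 CPM with NAVI and 0.525 ± 0.123 CPM with DQ, and Pdgfrb, the pericyte growth factor receptor that dasatinib inhibits, 23.6 ± 2.28 CPM with NAVI and 17.2 ± 2.62 CPM with DQ (SD, n = 4 each).

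The vehicles differed in these genes too. The list median was 0.48 for VehN against VehD, and after subtraction of the vehicles the drugs differed by a median of -0.04. Tagln had 11.3, 15, 11.1 and 12.1 CPM with VehN, against 5.2, 3.4, 3.28 and 7.35 CPM with VehD. In WT the same contrast of NAVI and DQ had a list median of -0.41, and only 1 of 12 members had a difference above 0 there. Without NAVI replicate 1 the 3xTg median was 0.46. In bulk tissue, fewer cells of a type and less RNA per cell cannot be told apart. Summed over its 12 members, the marker level ran from 98.8 to 154 CPM with NAVI and from 71 to 101 CPM with DQ, with no member at 0, and the part of a varying vessel content in these differences was not tested.

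The Myl9 promoter is shown because it holds a known element of smooth muscle genes. The CArG box, the site of serum response factor in smooth muscle promoters, was searched by its consensus on both strands and occurred in 535 of 32851 promoters (1.63%). Of the genes named by rule it was found in Myl9 and in Lef1. No match was recorded for the list members Notch3, Tagln, Des and Pdgfrb. Nor was one recorded for the members Myh11, Acta2 and Cnn1, which were added to the search. A promoter missing from the set searched would also give no match. The stretch of Myl9 at chr2:156775264-156775413 on the plus strand holds it in capitals; the box reads as a match on either strand.
Myl9: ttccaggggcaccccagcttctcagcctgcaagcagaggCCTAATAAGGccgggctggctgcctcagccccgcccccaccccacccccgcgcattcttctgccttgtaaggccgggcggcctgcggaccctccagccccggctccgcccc

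Other vascular and connective tissue genes lay the same way. Fibroblast and collagen genes had a difference above 0 in 15 of 16 members, a median of 0.38 and 5 members with an unadjusted p under 0.05, all higher (6.98% of all genes). Col1a1, the main fibrillar collagen, had 5.83, 4.05, 2.39 and 2.43 CPM with NAVI, against 1.51, 1.39, 2.65 and 1.86 CPM with DQ, with the high levels again in NAVI replicates 1 and 2. Brain endothelial genes were above 0 in 15 of 16 members with a median of 0.20, which was 0.10 without NAVI replicate 2 and -0.16 after subtraction of the vehicles. Of these 16 genes 1 had an unadjusted p under 0.05, on the higher side, a share near the 6.98% of all genes. In 4 of them every NAVI library lay above every DQ library (3.66% of all genes). Tie1, an endothelial receptor kinase, had 7.05, 6.44, 5.9 and 5.94 CPM with NAVI, against 4.01, 3.53, 3.9 and 4.3 CPM with DQ (0.69, SE 0.231). The vehicles again split alike, by medians of 0.55 for the fibroblast genes and 0.39 for the endothelial genes.

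Myelin genes, which encode the proteins and lipid enzymes of the oligodendrocyte sheath, lay higher with NAVI in all 15 tested members, with a median of 0.35. Of these, 6 had an unadjusted p under 0.05, all higher (6.98% of all genes), and in 7 the libraries did not overlap (3.66% of all genes). Mbp, the myelin basic protein, had 2022, 1572, 1887 and 1911 CPM with NAVI, against 1459, 1214, 1044 and 1016 CPM with DQ. Opalin, a membrane protein of mature oligodendrocytes, had 49.5, 37.2, 41.7 and 29.9 CPM with NAVI, against 29.1, 21.6, 25.4 and 21.5 CPM with DQ. Every NAVI library was above every DQ library in both. The differences were 0.64 (SE 0.221) and 0.70 (SE 0.234), and Mag, an adhesion protein of the inner sheath, and Cnp, a phosphodiesterase of its cytoplasm, differed by 0.60 (SE 0.248) and 0.47 (SE 0.189), with an adjusted p of 0.336 in all 4. Here the vehicles differed little, with a list median of 0.04, and the median after subtraction of the vehicles was 0.34. In WT the median was 0.19 with all 15 members above 0, and 0 of them had an unadjusted p under 0.05 there. Among the VehN libraries the spread was wide, with Mbp at 1988, 1437, 804 and 997 CPM with VehN.

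Microglia genes induced around amyloid plaques lay higher with NAVI in 26 of 29 tested members, with a median of 0.29, 8 members with an unadjusted p under 0.05 on the higher side (6.98% of all genes) and 1 on the lower (7.48%). Itgax, the integrin CD11c, had 3.76, 5.28, 12 and 5.53 CPM with NAVI, against 4.95, 3.56, 3 and 3.45 CPM with DQ. Trem2, the lipid receptor that microglia need for this state, had 10.1, 13.8, 28.1 and 17.2 CPM with NAVI, against 13.5, 11.4, 11.3 and 13.2 CPM with DQ. NAVI replicate 3 was the highest of the 8 libraries in both genes, and replicate 1 lay within or below the DQ range. Cst7, a cysteine protease inhibitor, was also highest in that library and had 5.62, 12.3, 24.3 and 10.2 CPM with NAVI, against 9.77, 7.07, 10.3 and 7.58 CPM with DQ. The log2 differences were 0.82 (SE 0.268), 0.48 (SE 0.22) and 0.59 (SE 0.311) in that order. Without NAVI replicate 3 the list median was 0.10, and the differences were 0.36 for Itgax, 0.13 for Trem2 and 0.10 for Cst7. Axl, a receptor that recognises dying cells, differed by less but without overlap, at 73.1 ± 5.56 CPM with NAVI and 64 ± 3.29 CPM with DQ (SD, n = 4 each), whereas the growth factor Igf1 differed by -0.29 (SE 0.106). Homeostatic microglia markers had a median of 0.10, with 13 of 16 above 0, and the median was 0.02 without the same library.

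The same library stood out in reactive astrocyte genes. Gfap, the astrocyte intermediate filament, had 984, 1142, 1779 and 941 CPM with NAVI, against 886, 787, 925 and 934 CPM with DQ, and its difference of 0.46 (SE 0.176) was 0.20 without NAVI replicate 3. Of 24 tested reactive astrocyte genes 22 were above 0 with a median of 0.28, which was 0.10 without that library. Timp1, an inhibitor of matrix proteases that is also among the secretory factors of senescent cells, had 1.1, 1.51, 2.94 and 1.24 CPM with NAVI, against 0.655, 0.739, 0.727 and 0.724 CPM with DQ. Secretory factors had a median of 0.38 with 23 of 28 members above 0, and 2 with an unadjusted p under 0.05, a share near the 6.98% of all genes. These were Timp1 and the macrophage growth factor Csf1 (0.29, SE 0.103). Without NAVI replicate 3 the medians were 0.21 for the secretory factors, 0.16 for the complement genes and 0.17 for the MHC genes, lower than those of all 8 libraries given here. Complement genes had a median of 0.27, and C4b, a component of the classical cascade, averaged 384 ± 66.7 CPM with NAVI and 294 ± 33.8 CPM with DQ (SD, n = 4 each). All 16 genes of MHC antigen presentation were above 0, with a median of 0.31 and 1 under an unadjusted p of 0.05, a share near the 6.98% of all genes.

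Interferon-stimulated genes, the antiviral genes that STAT factors switch on, lay the other way. Only 2 of 28 tested members had a difference above 0 (52.8% of all genes had), and the median was -0.30. An unadjusted p under 0.05 was found for 3, all lower, a share near the 7.48% of all genes. In none of the 28 were the libraries free of overlap, where 3.66% of all genes lay wholly higher and 4.29% wholly lower. Rtp4, a chaperone of receptors, had 3.14, 4.05, 2.69 and 3.51 CPM with NAVI, against 2.94, 7.23, 4.1 and 7.77 CPM with DQ, and Ifit3, an RNA-binding antiviral protein, had 13.2, 21.6, 11.2 and 19.1 CPM with NAVI, against 10.8, 31.1, 22.7 and 30.2 CPM with DQ. DQ replicate 1 was as low as the NAVI libraries, and DQ replicates 2 and 4 were high. The differences were -0.71 (SE 0.254) for Rtp4, -0.54 (SE 0.29) for Ifit3, -0.73 (SE 0.307) for the dynamin-like GTPase Mx2 and -0.94 (SE 0.422) for Ifi44. Leaving out single libraries moved the list median between -0.50 without DQ replicate 1 and -0.11 without DQ replicate 4. The median was -0.40 for NAVI against VehN and -0.16 for DQ against VehD.

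**Figure D3:**
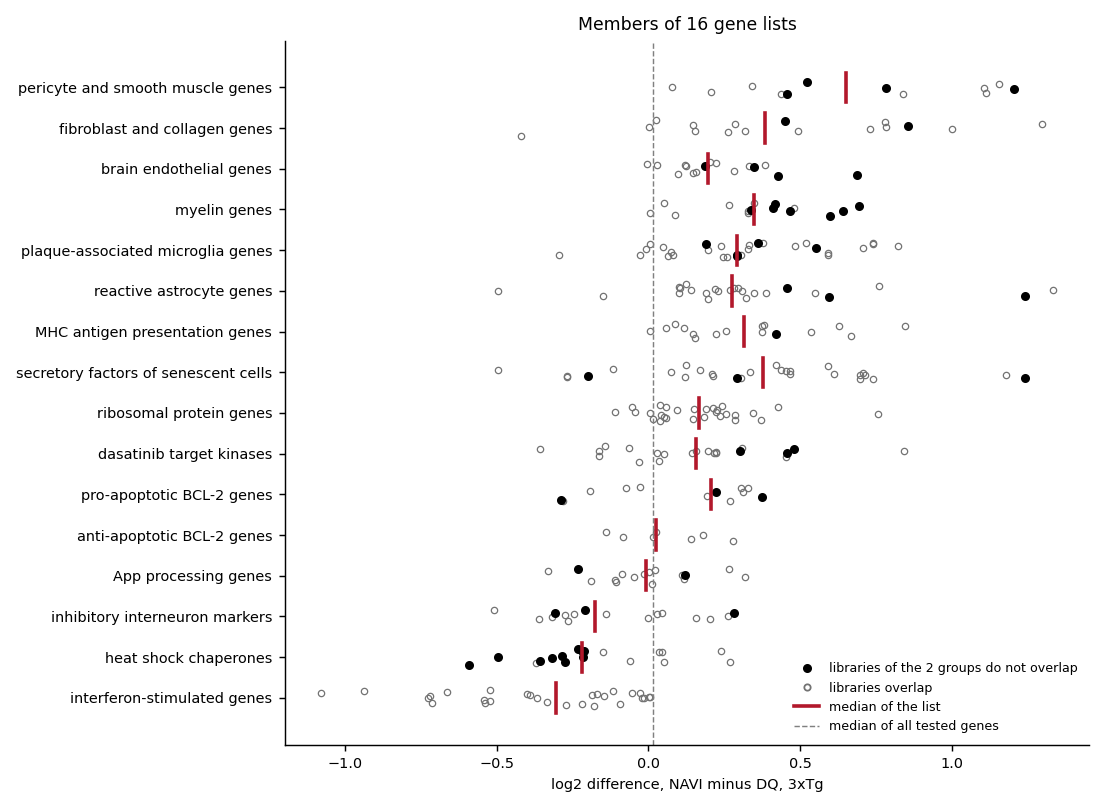
Log2 difference between NAVI and DQ in 3xTg (x axis) of each tested member of 16 gene lists (rows); filled points have no overlap between the libraries of the groups, open points overlap, red bars are list medians and the dashed line is the median of all tested genes. Pericyte, fibroblast and myelin genes lie to the right, at medians of 0.65, 0.38 and 0.35, and chaperones and interferon-stimulated genes to the left, at -0.22 and -0.30.

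Of the anti-apoptotic genes that navitoclax binds as proteins, Bcl2 averaged 25.2 ± 2.83 CPM with NAVI and 26.8 ± 1.17 CPM with DQ, Bcl2l1 (BCL-XL) 102 ± 7.69 CPM with NAVI and 92.2 ± 8.19 CPM with DQ, and Bcl2l2 (BCL-W) 190 ± 1.9 CPM with NAVI and 188 ± 1.83 CPM with DQ (SD, n = 4 each). Their 95% intervals ran from -0.28 to 0.12, from -0.05 to 0.33 and from -0.06 to 0.09 on the log2 scale. Mcl1, the family member that navitoclax spares, had an interval from -0.15 to 0.20. The list median over 7 anti-apoptotic genes was 0.02, with 0 members under an unadjusted p of 0.05 (14.5% of all genes). Among 12 pro-apoptotic partners 2 had such a p on each side, beside 6.98% of all genes on the higher side and 7.48% on the lower. Bad and Bax differed by 0.38 (SE 0.166) and 0.31 (SE 0.143), and Hrk and Bnip3 by -0.29 (SE 0.128) and -0.28 (SE 0.104). With the GC trend removed the median of these 12 was -0.002, against 0.21 before.

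Kinases bound by dasatinib had a median of 0.16, with 15 of 21 above 0 (52.8% of all genes) and 4 under an unadjusted p of 0.05, all higher (6.98% of all genes). Abl1 had 50.8, 51, 57.7 and 59.7 CPM with NAVI, against 49.6, 45.3, 41.1 and 41.8 CPM with DQ (0.30, SE 0.109), and no library crossed. Src had an interval from -0.13 to 0.41. With the GC trend removed the median of the kinases was 0.03. Genes of the aryl hydrocarbon receptor, which flavonoids can engage, had 0 of 7 members under an unadjusted p of 0.05 (14.5% of all genes). Their median of 0.12 was -0.01 without NAVI replicate 1 and 0.04 without NAVI replicate 3. The median of NRF2 antioxidant genes was 0.05. Of 19 members 1 had an unadjusted p under 0.05 on each side, shares near the 6.98% and 7.48% of all genes.

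Of the genes that hold senescent arrest, Cdkn1a and Cdkn2a overlapped between the drugs. Cdkn1a had 8.74, 14.2, 11.3 and 10.7 CPM with NAVI, against 10.7, 9.4, 10.2 and 8.55 CPM with DQ, and its interval ran from -0.24 to 0.66. Cdkn2a was below the low count filter, with 1, 1, 5 and 4 counts in the NAVI libraries and 2, 1, 0 and 2 in the DQ libraries. It averaged 0.0739 ± 0.0627 CPM with NAVI and 0.0278 ± 0.0213 CPM with DQ (SD, n = 4 each), and an exact two-sided permutation test gave p = 0.286, where 4 against 4 libraries can reach 0.0286. Cdkn2b, the neighbouring inhibitor gene, did not overlap but was low too, at 0.807 ± 0.0786 CPM with NAVI and 0.483 ± 0.239 CPM with DQ (0.71, SE 0.326), and its difference was 0.42 without DQ replicate 3. The list of 16 cell cycle regulators had a median of 0.05, and 14 p53 target genes a median of 0.00 with 7 on each side.

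Neuronal genes lay in both directions, and none was called. Among 24 immediate early genes, which neuronal activity induces within minutes, 4 had an unadjusted p under 0.05 on each side. Over all genes the shares were 6.98% on the higher side and 7.48% on the lower. The libraries were free of overlap in 1 of the 24, on the higher side (3.66% of all genes). Arc, a regulator of synaptic receptors, had 115, 99, 114 and 83.4 CPM with NAVI, against 67.8, 73.4, 55.7 and 55.2 CPM with DQ, without overlap (0.70, SE 0.247), and both vehicles lay near DQ, at 48.4 to 77.5 CPM with VehN and 47.4 to 71.8 CPM with VehD. The transcription factor Junb differed by 0.82 (SE 0.302), while Homer1, a postsynaptic scaffold, and Bdnf, a neurotrophin, differed by -0.38 (SE 0.14) and -0.28 (SE 0.105). Inhibitory interneuron markers had 5 of 16 members under an unadjusted p of 0.05 on the lower side (7.48% of all genes) and 1 on the higher (6.98%), with a median of -0.17 that was -0.11 without NAVI replicate 3. Gad1, an enzyme of GABA synthesis, had 465, 497, 397 and 471 CPM with NAVI, against 527, 543, 541 and 505 CPM with DQ, and the cannabinoid receptor gene Cnr1 averaged 300 ± 29.5 CPM with NAVI and 371 ± 22.2 CPM with DQ (SD, n = 4 each). For the genes of the disease model itself, the interval was -0.18 to 0.18 for App, -0.11 to 0.12 for Mapt and -0.18 to 0.22 for Thy1, whose promoter drives the transgenes. Counts of App and Mapt may hold reads of the human transgenes, which cannot be told apart here. Genes that process App had a median of -0.01, with 14 of 16 bounded within 1.5-fold.

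Base composition moved with the comparison. The slope of a library's log2 level on the GC content of transcripts averaged 0.140 ± 0.158 per 10% GC with NAVI and -0.0432 ± 0.0645 with DQ (SD, n = 4 each), with an exact two-sided permutation p of 0.0571 (0.114 adjusted over 2 library features). For total counts the same exact test gave p = 0.571. Across 15590 genes with a known GC content, Spearman's rho between GC and the difference of NAVI and DQ was 0.540, a description over genes that share 8 libraries. Ribosomal protein genes lay higher with NAVI in 25 of 28 members, with a median of 0.17 that was 0.06 with the GC trend removed. With the GC trend removed 0 genes were called as well, and the part of base composition in the differences was not tested beyond this. Other medians with it removed were 0.48 for pericyte genes, 0.30 for myelin genes, -0.18 for chaperones, -0.29 for interferon-stimulated genes, 0.17 for plaque-associated microglia genes, 0.15 for MHC genes, 0.12 for complement genes and -0.03 for immediate early genes, which had 0.19 before. Among single genes, Rab34 had 0.15, Lor 0.14, Sdhaf2 -0.13 and Ift80 -0.17 with the trend removed, and of the 24 genes of smallest p these 4 moved by over 1.5 times, where BC023829 has no GC value. Abl1 had 0.12, Axl 0.05, Bad 0.17, Bax 0.01, Csf1 0.15, C4b 0.22, Gfap 0.28, Junb 0.53 and Mag 0.39 in that setting, all less than without it. Slc3a2 had 0.01, Igf1 -0.18 and Bdnf -0.18.

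Markers of tissues next to the hippocampus varied between libraries within a group, and their part in the results was not tested beyond the values given here. Choroid plexus markers summed to between 465 and 5566 CPM with NAVI and between 487 and 4728 CPM with DQ, with no marker at 0. Enpp2, an abundant choroid plexus enzyme, had 1673, 400, 1723 and 312 CPM with NAVI, against 359, 586, 383 and 1616 CPM with DQ. NAVI replicates 1 and 3 and DQ replicate 4 were the high libraries, and the list median of 0.52 was 0.03 without NAVI replicate 3 and 1.53 without DQ replicate 4. Tcf7l2, a transcription factor of thalamus and habenula, had 33.6, 5.34, 3.82 and 4.75 CPM with NAVI, against 4.67, 4.97, 4.91 and 4.8 CPM with DQ, so that NAVI replicate 1 stood alone. The thalamus median of 0.52 was -0.06 without that library. With scores of both tissues as covariates 0 genes were called, and the medians of chaperones, pericyte genes and myelin genes were -0.19, 0.56 and 0.29. Of 15 blood cell genes, 4 haemoglobin genes were listed at 0 in all 8 libraries. Alas2, the haem synthesis enzyme of red cells, had 0.69, 10.8, 0.214 and 0.501 CPM with NAVI, against 0.496, 0.693, 0.174 and 0.507 CPM with DQ.

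**Figure D4:**
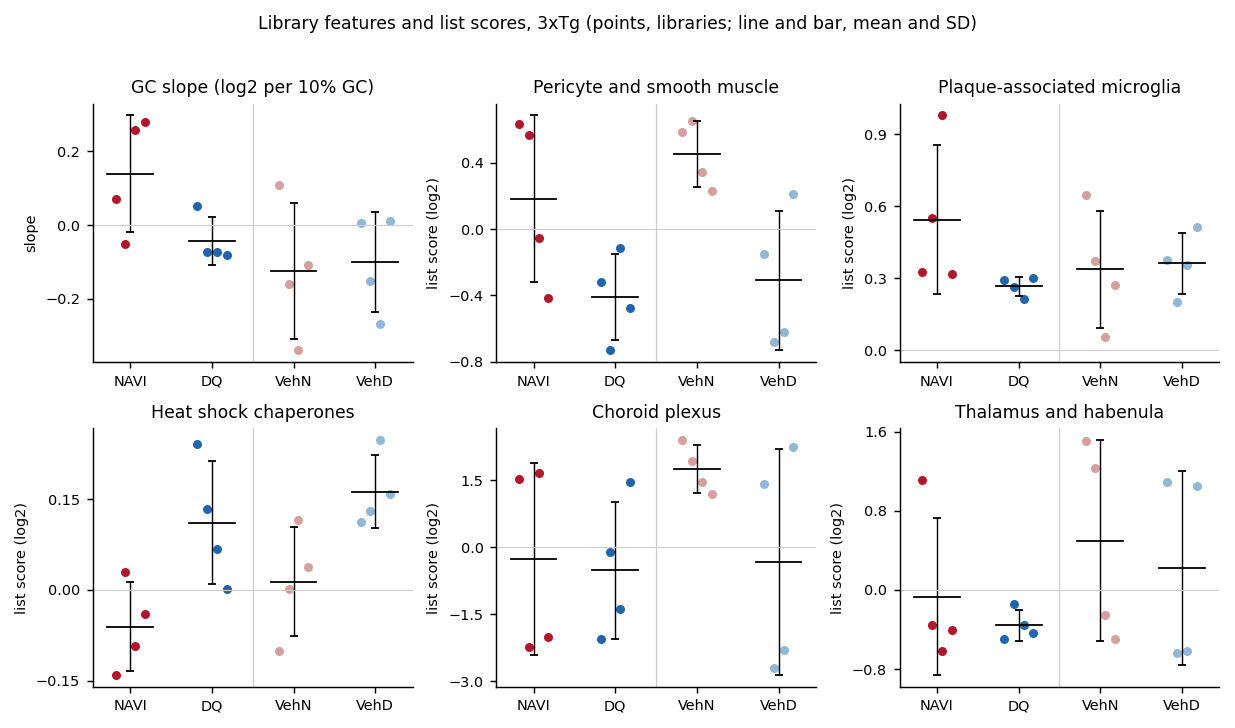
GC slope (log2 per 10% GC) and scores of 5 gene lists (mean log2 level of the members, relative to all libraries) in each 3xTg library, NAVI left of DQ and vehicles at the right; points are libraries, lines and bars the mean and SD of 4. Among the 8 drug libraries, NAVI replicates 1 and 2 have the highest pericyte scores, NAVI replicate 3 the highest microglia score and NAVI replicate 1 the highest thalamus score (1.11), while VehN replicate 2 has higher scores for pericytes (0.65) and thalamus (1.23).

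Subtraction of each drug's own vehicle left 0 genes called with edgeR, DESeq2 and limma-voom. At an unadjusted p under 0.05 there were 666 genes (4.07%), 428 higher and 238 lower. The smallest p belonged to Depdc1b, a gene of low level, which had 0.358 to 0.537 CPM with NAVI and 0.204 to 0.314 CPM with DQ, beside 0.191 to 0.321 CPM with VehN and 0.392 to 0.648 CPM with VehD. Its difference was 1.86 (SE 0.399) with an adjusted p of 0.711. The microglia genes had a list median of 0.28 after the subtraction, the reactive astrocyte genes 0.29 and the myelin genes 0.34, and the pericyte genes and chaperones -0.04 and -0.12. Before the subtraction the microglia and astrocyte medians were each 0.10 without NAVI replicate 3. That library enters the subtraction too, and the subtracted medians were not computed without it. Comparisons against a vehicle share its libraries with this subtraction, so these medians are given side by side only.

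In WT mice the contrast of NAVI and DQ rests on other libraries, and 11 genes were called there (0.0672%), with 1611 at an unadjusted p under 0.05 (9.84%). All 11 lie on chromosome 15, among them Cthrc1, a secreted protein of matrix-forming cells, and Mtmr12, a phosphatase adaptor. Cthrc1 averaged 5.04 ± 0.471 CPM with NAVI and 4.91 ± 0.604 CPM with DQ in 3xTg, and 4.6 ± 1.03 CPM with NAVI and 0.775 ± 0.0717 CPM with DQ in WT (SD, n = 4 each). The contrast differed between the genotypes for Cthrc1 by -2.53 (SE 0.314, adjusted p = 0.000347) and for Mtmr12 by -0.54 (SE 0.086, adjusted p = 0.0111), and for 2 genes in all (0.0122%). Leaving out single libraries gave 5 to 20 called genes in WT, with 20 without WT DQ replicate 2, and 1 to 55 between the genotypes, with 55 without the same library. In 3xTg none of the 11 was called, and Cthrc1 differed by 0.04 (SE 0.207). Dcstamp, also on chromosome 15 (chr15:39745930-39760938), differed by 1.70 (SE 0.448) in 3xTg and by -1.42 (SE 0.472) in WT, neither called.

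Across all genes the contrast mostly had opposite signs in the 2 genotypes. The sign was the same for 28.7% of the 16369 genes, for 18.5% of the 2367 with an unadjusted p under 0.05 in 3xTg and for 10 of the 24 genes of smallest p. Pearson's r across genes was -0.327, over genes that share 16 libraries and are not replicates. Genes free of overlap between the drugs in 3xTg and also in WT numbered 56 of 16369, of which 3 had the same direction and 53 the opposite. In 3xTg alone 3.66% of all genes lay wholly higher and 4.29% wholly lower. The share in WT alone was not counted, so the 56 cannot be set against an expected number. The relation to GC content was opposite too, with a Spearman's rho of -0.499 in WT. With the GC trend removed the sign was the same for 37.5% of 15590 genes and r was -0.242. Sgk2 and Wnt9a had the same direction in both genotypes, at 0.59 (SE 0.254) and 0.36 (SE 0.19) in WT, while Gja4 and Notch3 had -0.14 (SE 0.215) and -0.34 (SE 0.187) there.

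**Figure D5:**
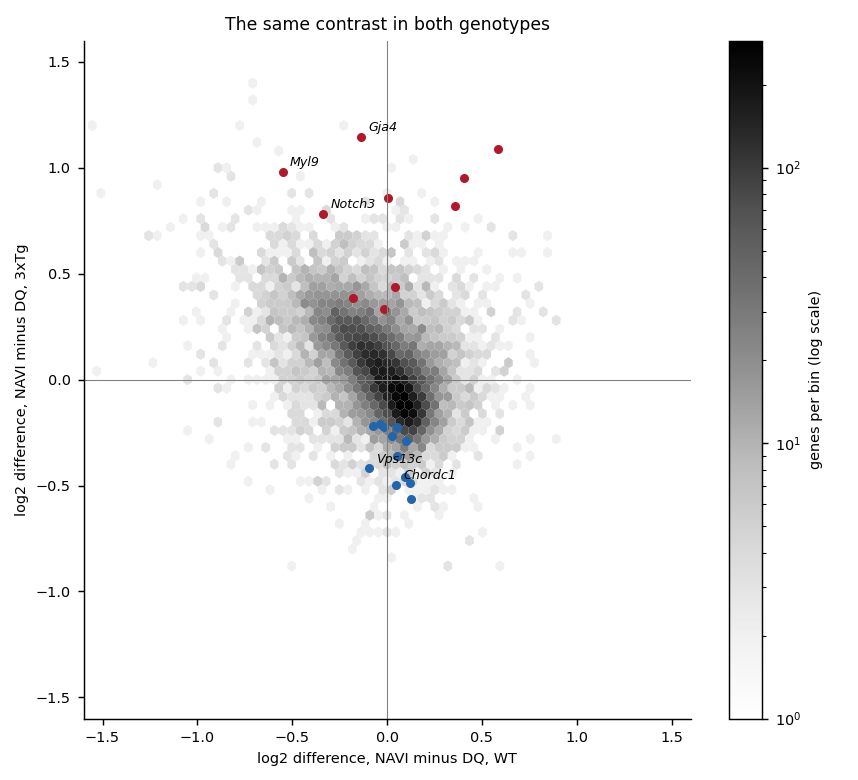
Log2 difference between NAVI and DQ in 3xTg (y axis) against that in WT (x axis), with genes counted in bins (grey, log scale); 144 genes lie outside the axes. Red and blue points are the genes of smallest p in 3xTg, higher and lower with NAVI (Ube2c and Dcstamp are outside), and the cloud runs from upper left to lower right (r = -0.327 across 16369 genes).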

How the data were processed

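Hippocampal RNA of 28 libraries, 4 in each of 7 groups, was sequenced as paired reads of 100 bases from stranded messenger RNA libraries, per the labels' protocols. The deposited file holds raw read counts per gene, made by the authors from mm10; STAR, Subread and featureCounts are named in the submitters' processing notes, and the sources used here give no versions, annotation or strand setting. Symbols were matched to GENCODE positions for 15590 tested genes. Without a known strand setting, overlapping genes cannot be told apart, nor can close paralogs. The total count of the libraries ran from 32080861 to 54019519.

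All 28 libraries entered 1 fit with edgeR 4.0.16 in R 4.3.3 (filterByExpr, TMM factors, quasi-likelihood test, 1 coefficient per group), so that all groups shared the estimate of spread. Of 24062 genes, 7693 were removed by the filter. A gene was called at a Benjamini-Hochberg adjusted p under 0.05. Standard errors were derived from the test statistic, and intervals are at 95%. Alternatives used DESeq2 1.42.0, limma-voom 3.58.1, other scalings and filters, only the groups compared, GC and tissue terms, the replicate block and each library left out. The scripts were tested on simulated data. Within 3xTg NAVI and within 3xTg DQ no pair of libraries had counts that agreed within sampling noise (lowest chi-square per degree of freedom 13.2). Named genes were the 12 of smallest p in each direction, the 5 of smallest p in the other contrasts, up to 4 members per described list and a set of drug target, senescence and disease genes; not all of them are printed. Members and gene lists were chosen with earlier results of these data known, and the 28 of 47 lists described were chosen after their values were seen.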

Additional observations from a re-analysis of the deposited data

Results flagged for a closer look

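In groups of 4 libraries, 1 library far from the other 3 was looked for in 170 groups of values and found in 11, and chance gives about 1 in 20 groups. NAVI replicate 1 stood above the other NAVI libraries in Tcf7l2 (33.6 CPM), in Lef1, a transcription factor shared with thalamus (10.9 CPM), and in the score of thalamus and habenula markers (1.11, mean log2 level relative to all libraries). NAVI replicate 2 stood apart in Alas2 (10.8 CPM) and NAVI replicate 3 in Col5a1 (12.6 CPM). DQ replicate 1 was the highest of its group in the slope on GC content (0.0533 per 10% GC) and the lowest in Lor (1.75 CPM). DQ replicate 2 was the highest in Tcerg1l (16.9 CPM) and Ccnd3 (14.1 CPM) and the lowest in Pdgfrb (13.3 CPM), and DQ replicate 3 was the highest in Tagln (5.73 CPM).

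The difference between NAVI and DQ itself differed between 3xTg and WT for 2 genes of chromosome 15, by a test of the difference across all genes with edgeR. It was -2.53 for Cthrc1 and -0.54 for Mtmr12 (log2, 3xTg minus WT).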

How the results depend on the processing

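The number of genes called between NAVI and DQ in 3xTg was 0 under the other scalings, filters, GC and tissue settings and with any library left out, and 3 with DESeq2, 8 with limma-voom and 1 with the replicate block. After subtraction of the vehicles it was 0 in every setting run. In WT the 11 called genes became 38 with DESeq2, 39 with limma-voom and 1 in a fit of only the groups compared, and 5 to 20 without single libraries. The genotype difference of NAVI minus DQ called 2 genes, which became 67 with DESeq2, 1861 with limma-voom, 9 with only the groups compared, 5 with the GC trend removed, 1 with the tissue scores and 1 to 55 without single libraries, with 55 without WT DQ replicate 2. The cause of these changes was not tested.

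With the replicate number as a block, 1 gene was called between NAVI and DQ in 3xTg, BC023829 (adjusted p = 0.0275), and 5 between the genotypes. Same-numbered NAVI and DQ libraries of 3xTg correlated by -0.265 to -0.0448 in their deviations from the group means. Of these libraries 0 of 8 correlated best with their own number. Whether same-numbered libraries shared a preparation or batch was not tested, and these correlations cannot exclude it.

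Genes near 0 changed sign, none of them called. With limma-voom App was -0.0288, Mapt -0.0240 and Thy1 -0.0184, and with the block Mapt was -0.000247. With the GC trend removed Bcl2l1 was -0.0344, Bcl2l2 -0.0933, Mapt -0.0936, Src -0.0998 and Thy1 -0.152, and with the block as well they were -0.0322, -0.0932, -0.0943, -0.101 and -0.153 in the same order. With the tissue scores Cthrc1 was -0.0676. Without single libraries the lowest and highest values were -0.0395 and 0.0288 for App, -0.0359 and 0.0171 for Mapt, -0.0202 and 0.0616 for Thy1, -0.00469 and 0.0130 for Bcl2l2, -0.0589 and 0.0872 for Mcl1, -0.0412 and 0.0825 for Cthrc1, -0.0701 and 1.58 for Tcf7l2 and -0.0103 and 3.06 for Alas2. Low genes were bounded less tightly than abundant ones at this depth.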
